A study of Mus musculus with 6 samples.

Results

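The heat shock chaperone genes Hspa1a, Hspa1b, Hspa8, Hspa5, Hsp90aa1, Hsp90ab1, Hspb1, Hsph1, Dnajb1 and Hspd1 were examined in blood stem and progenitor cells with reduced Ercc1 function. A probe set, the group of short probes that reads a transcript on the array, was taken when the platform annotation gave it exactly 1 gene symbol, equal to 1 of these names. This found 23 probe sets for 9 of the 10 genes, among 45037 probe sets that were not controls and 18193 genes with a probe set of their own. Hsp90ab1 had no such probe set and is not analysed here. For each gene the probe set with the highest mean signal over the 6 arrays was the main one.

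The samples were LSK cells, lineage-depleted bone marrow cells sorted for Sca-1 and c-Kit, from F1 mice of C57BL/6 and FVB/n. The 3 Ercc1-deficient samples (-/d) had a knockout allele and a truncated allele (d) of Ercc1, whose product is part of a DNA repair endonuclease. The Ercc1-proficient litter mates were +/+ in litters 1 and 2 and +/d in litter 3, so that last control shares the truncated allele with its litter mate. The mice were 22 weeks old in litter 1 and 20 weeks old in the other litters. The labels name no treatment and leave it unsaid if several mice were pooled for a sample, so p-values cover only the spread of these 6 samples.

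Heat shock chaperones bind unfolded or newly made proteins and help them fold, assemble or be removed. The HSP70 proteins work through cycles of ATP use that J-domain partners start and HSP110 proteins help to reset; HSP90 then finishes many signalling proteins, and small heat shock proteins hold unfolded clients without ATP. Inducible members are raised by the transcription factor HSF1 through heat shock elements in their promoters, while constitutive members are made in unstressed cells, and the chaperones of the endoplasmic reticulum answer to the unfolded protein response instead. In blood stem cells this system is known for guarding protein quality in cells that make protein slowly.

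Promoter sequences of 4 of the genes are the 150 bases before the RefSeq gene start (build GRCm38.p6), 5′ to 3′ on the gene's own strand, in lower case, with motif letters in capitals. The heat shock element was searched as GAANNTTC or TTCNNGAA, and the endoplasmic reticulum stress element as CCAAT and CCACG with 9 bases of any kind between them, each on both strands. Hspa1b is shown as the gene called, Hspa1a as its near-identical copy, and Hspb1 and Hspa5 as an inducible gene near the floor and a gene of the other stress system.
Hspa1b, chr17:34959239-34959388, minus strand: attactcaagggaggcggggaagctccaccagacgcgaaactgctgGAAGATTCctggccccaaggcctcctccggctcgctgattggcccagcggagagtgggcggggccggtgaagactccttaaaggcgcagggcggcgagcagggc
Hspa1a, chr17:34972157-34972306, minus strand: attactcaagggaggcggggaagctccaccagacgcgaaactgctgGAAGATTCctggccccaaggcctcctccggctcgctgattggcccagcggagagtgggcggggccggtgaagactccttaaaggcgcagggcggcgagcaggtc
Hspb1, chr5:135887769-135887918, plus strand: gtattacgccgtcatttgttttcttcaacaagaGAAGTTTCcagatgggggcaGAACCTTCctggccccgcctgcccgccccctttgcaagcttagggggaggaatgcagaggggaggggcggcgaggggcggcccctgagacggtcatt
Hspa5, chr2:34771940-34772089, plus strand: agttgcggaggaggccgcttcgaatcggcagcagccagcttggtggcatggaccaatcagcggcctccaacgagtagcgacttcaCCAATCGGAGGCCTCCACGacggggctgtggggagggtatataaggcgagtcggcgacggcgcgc

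The Hspa1a and Hspa1b stretches were identical at 149 of these 150 positions, and at 247 of the 250 bases held before each start. Each had 1 heat shock element, beginning 104 bases before the start, and Hspb1 had 2, beginning 117 and 97 bases before it. The 2-unit element was present in 12.8% of 32851 RefSeq promoter windows of 250 bases, so a match is common. Hspa5 had the stress element of the endoplasmic reticulum 65 bases before its start, which 0.113% of windows had. The windows at the outer gene starts of Dnajb1 (chr8:83608025-83608174, plus strand) and Hspd1 (chr1:55088244-55088393, minus strand) held neither motif in these letters. An inner start of Hspd1 had 3 of the 2-unit elements, which overlapped and began 144, 139 and 134 bases before it. They held 2 heat shock elements of 3 units, beginning 144 and 139 bases before that start. The 3-unit element was present in 0.466% of windows, and among the genes searched only this start of Hspd1 had it. Hsph1 had 1 of the 2-unit elements at each of its 2 starts, 33 and 54 bases before them.

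In Ercc1-deficient cells 1 of the 8 chaperone genes tested fell and none rose. This was Hspa1b, the stress-inducible HSP70, whose log2 difference was -1.71 (standard error 0.36; adjusted p = 0.0185, limma with the litter term). Its size was set largely by the proficient sample of litter 1, and the log2 difference was -0.82 without that litter. The brightly measured chaperones did not pass: Hspa8 differed by -0.11, Hsp90aa1 by 0.26, Hspa5 by 0.41 and Hspd1 by -0.36 on the log2 scale, with standard errors from 0.23 to 0.29. Over all probe sets tested, the same fit called 0.835% in either direction and 0.52% lower in deficient cells. Values are array signals on a linear scale, differences are on the scale log2(signal + 30), and calls have an adjusted p under 0.05 over 22519 probe sets.

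Hspa1b and Hspa1a encode the near-identical inducible HSP70 that is scarce in resting cells and rises within minutes to hours of heat or other protein damage. On the main probe set of Hspa1b (1452318_a_at) the deficient samples read 68.7, 61.6 and 30 in litters 1, 2 and 3, and the proficient samples 1079.9, 126 and 80.3. All 3 deficient samples were below all 3 proficient ones, as in 4.89% of the probe sets tested, and the proficient sample of litter 1 was far above the other 5. The means were 53.5 ± 20.6 and 429 ± 564 (SD, n = 3 each), and the proficient signal was 15.7, 2.04 and 2.68 times the deficient one in litters 1, 2 and 3, the last against a value at the array's floor of 30. A two-sided exact permutation test that ignored the litters had p = 0.1, and 3 samples against 3 cannot go lower in it.

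The call for Hspa1b rested on a small error that was borrowed from other probe sets. The log2 differences of its litters were -3.49, -0.77 and -0.88, and their own standard error was 0.89, against 0.36 in the fit. With variances allowed to stay large for very variable probe sets, an alternative chosen after seeing the data, the adjusted p was 0.577 in limma, a fit that called 1.47% of all probe sets. Without the replicate block, that is without a litter term, it was 0.9998, and it was 0.0554 in limma with quantile normalization, 0.124 with no variance trend, 0.942 without the filter on weak probe sets and 0.326 on the mean of the gene's probe sets. Without litters 1, 2 and 3 the log2 difference was -0.82, -2.18 and -2.13, and those smaller fits called 0 of all probe sets, so the lost call is not particular to Hspa1b. The fits without a litter term and without the filter also called 0 of all probe sets, so the same holds for them. The deficient sample was lower in 3 of 3 litters, as in 17% of probe sets tested.

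The other HSP70 probe sets lay near the array's floor of 30, the lowest value deposited. A second Hspa1b probe set (1427127_x_at) was at the floor in all deficient samples and read 175, 48.3 and 30 in the proficient samples of litters 1, 2 and 3. On another (1427126_at) only the proficient sample of litter 1, at 74.5, was above the floor. Both entered the test only through their proficient samples, so no p is given for them. Hspa1a (1452388_at) was at the floor in all deficient samples, with 39.9, 33.2 and 30 in the proficient ones. On all 4 probe sets of this gene pair the proficient sample of litter 1 was thus the highest. Because the genes are near-identical copies, signal cannot be assigned firmly to either.

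Hspa1a did not enter the test, since its mean signal of 32.2 was under the filter of 32.6, and Hspb1 entered narrowly at 33.7, also only through its proficient samples. Hspb1 encodes a small heat shock protein that holds unfolded proteins and binds actin. It read 30, 34.0 and 30.2 in deficient and 30, 48.2 and 30 in proficient samples of litters 1, 2 and 3. These values were at or near the floor, and its second probe set (1425964_x_at) was at the floor on all 6 arrays. A level could therefore not be followed for Hspb1 on these arrays.

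**Figure D1:**
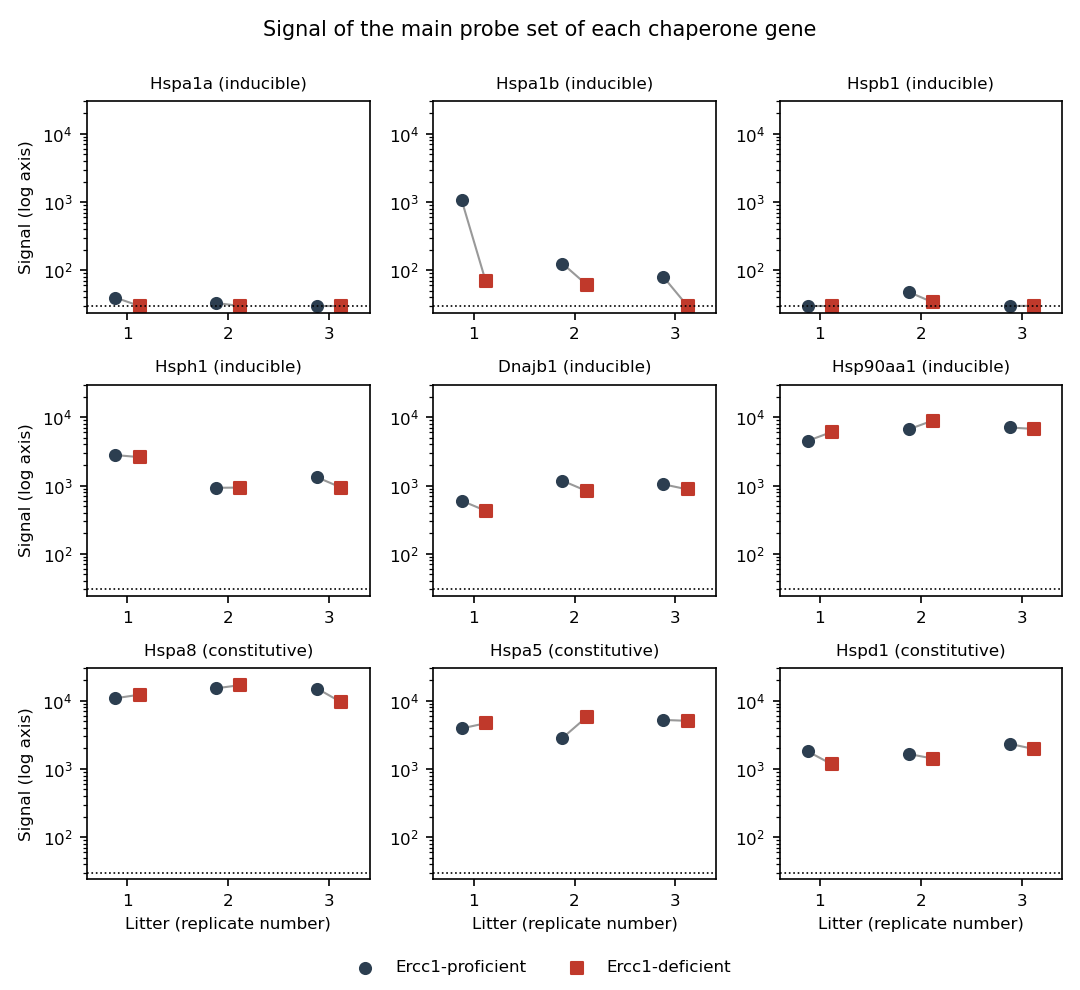
Signal of the main probe set of the 9 chaperone genes (log axis) by litter, with a line joining the Ercc1-proficient (circle) and Ercc1-deficient (square) sample of each litter; the dotted line is the floor of 30. Hspa1b stands out in the proficient sample of litter 1 at 1079.9, whereas Hspa1a and Hspb1 lie on or near the floor.

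Dnajb1 is the J-domain protein that hands clients to HSP70 and starts its ATP use, and it is itself a target of HSF1. Its main probe set (1416755_at) read 426, 832 and 877 in the deficient and 599, 1176 and 1043 in the proficient samples of litters 1, 2 and 3. The deficient sample was lower in each litter, with closely spaced log2 differences of -0.46, -0.48 and -0.24. The groups overlapped because litter 1 was low in both. The mean difference of -0.40 (standard error 0.22) did not pass (adjusted p = 0.517, limma with the litter term). The weaker probe set (1416756_at) had litter differences of 0.12, -0.54 and -0.05, so it did not share the sign in litter 1.

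Hsph1 encodes HSP110, which releases ADP from HSP70 and helps to dissolve aggregates. The main probe set (1425993_a_at) read 2607, 933 and 930.5 in deficient and 2794, 926 and 1321 in proficient samples of litters 1, 2 and 3. Both samples of litter 1 were well above the other 4, so litter separated this gene more than genotype did. The samples differed by -0.19 on the log2 scale (standard error 0.23) (adjusted p = 0.773, limma with the litter term). On the weaker probe set (1423566_a_at) the proficient sample of litter 1 was the highest at 95.3 and its deficient litter mate was at the floor.

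Hsp90aa1 encodes the cytosolic HSP90 that stress raises further, and it was measured above the floor by 3 of its 5 probe sets. The main one (1438902_a_at) read 6118, 8956 and 6753 in deficient and 4514, 6659 and 7087 in proficient samples of litters 1, 2 and 3. The deficient sample was higher in litters 1 and 2 and slightly lower in litter 3. Another probe set (1426645_at) was higher in the deficient sample of all 3 litters, at 1180, 1640 and 1807 against 971, 698 and 1354. Its log2 difference of 0.63 (standard error 0.24) did not pass (adjusted p = 0.291, limma with the litter term). The remaining measured probe set (1437497_a_at) differed by 0.13 with mixed signs, so the gene's probe sets did not give 1 picture.

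Hspa8 is the constitutive HSC70, which folds new proteins, strips clathrin coats and feeds chaperone-mediated autophagy. Its main probe set (1455789_x_at) read 12254, 16941 and 9479 in deficient and 10864, 15200.4 and 15089 in proficient samples of litters 1, 2 and 3. The deficient sample was higher in litters 1 and 2 and lower in litter 3, where the control was the +/d mouse. The samples differed by -0.11 on the log2 scale (standard error 0.29), and it was 0.16 without litter 3. A second probe set (1420623_x_at) was lower in the deficient sample of all 3 litters, by -0.49, -0.15 and -0.62. Its mean difference of -0.42 did not pass (adjusted p = 0.527, limma with the litter term), and the other 2 probe sets had mixed signs.

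Hspa5 encodes BiP, the HSP70 of the endoplasmic reticulum and the sensor partner of the unfolded protein response. The main probe set (1416064_a_at) read 4676, 5767 and 5070.4 in deficient and 3927, 2841 and 5229.9 in proficient samples of litters 1, 2 and 3. The groups overlapped, and the difference was carried by litter 2, where the deficient sample was 2.03 times its litter mate. A weaker probe set (1447824_x_at) had the smallest spread between litters of those above the floor on all 6 arrays. The deficient sample was higher in each litter, at 848, 1664 and 1354 against 504, 914 and 863. Its litter differences were 0.72, 0.84 and 0.63 on the log2 scale, with a mean of 0.73 (standard error 0.22). It did not pass (adjusted p = 0.146, limma with the litter term), although the deficient sample was higher in 3 of 3 litters, as in 11.3% of probe sets tested. A further probe set (1427464_s_at), of a kind that may read more than 1 transcript, had differences of -0.43, 1.01 and -0.21.

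Hspd1 encodes HSP60, the folding chamber of the mitochondrial matrix. Its only probe set (1426351_at) read 1166, 1420.2 and 1962 in deficient and 1808, 1656 and 2335 in proficient samples of litters 1, 2 and 3. The deficient sample was lower in 3 of 3 litters while the groups overlapped. The samples differed by -0.36 on the log2 scale (standard error 0.23) (adjusted p = 0.585, limma with the litter term). Hspe1, the lid of the same chamber and expressed from a shared promoter region, differed by 0.16 (adjusted p = 0.823, limma with the litter term).

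**Figure D2:**
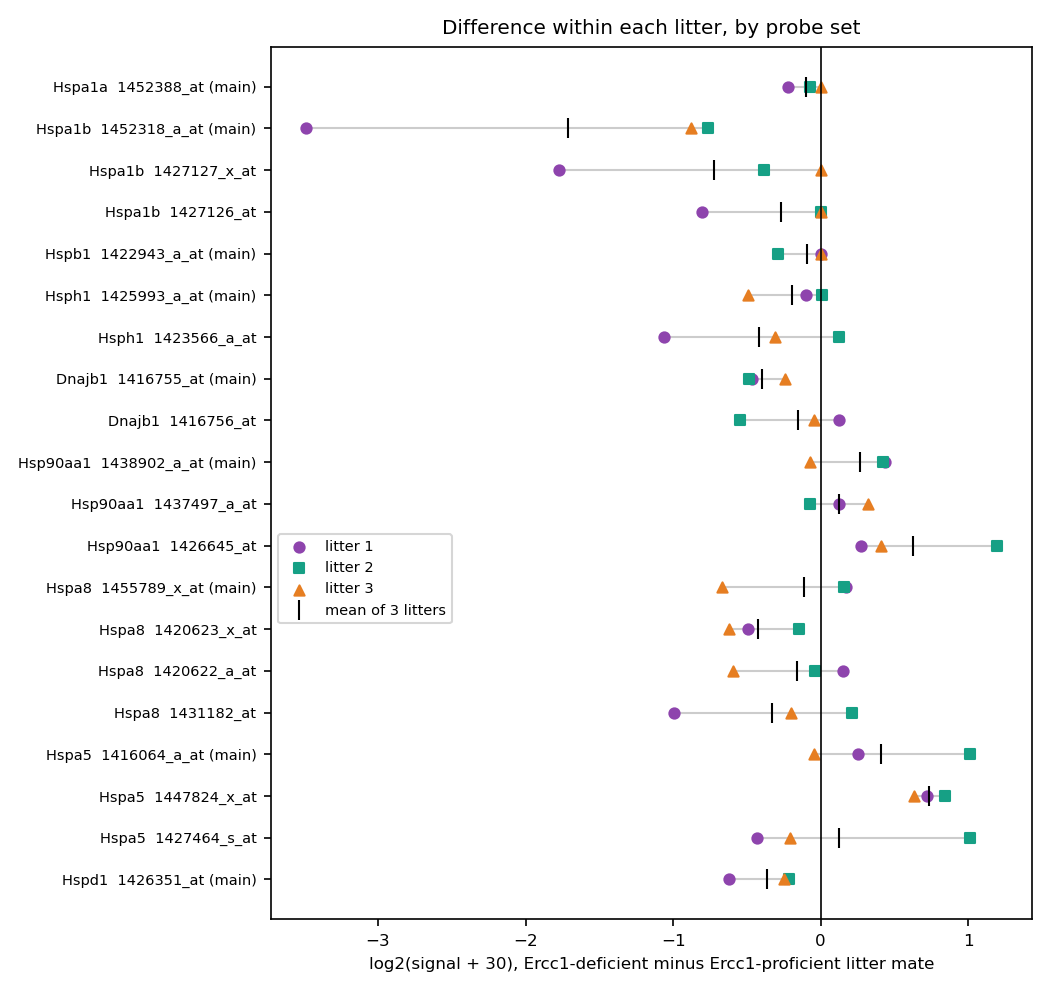
Difference in log2(signal + 30) between the Ercc1-deficient and the Ercc1-proficient sample of each litter, for the 20 chaperone probe sets above the floor on at least 1 array; symbols are litters and bars the mean of 3 litters. The main probe set of Hspa1b reaches -3.49 in litter 1, and the Hspa5 probe set 1447824_x_at keeps its litters between 0.63 and 0.84.

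Of the 19 chaperone probe sets that passed the filter, 3 did so only through the proficient samples, 2 of Hspa1b and that of Hspb1. Of the other 16, 10 were lower and 6 higher in deficient cells, and 54% of all probe sets tested were lower. Of those 16, 3 had an unadjusted p under 0.05 (limma with the litter term), against 11.5% of all probe sets tested. They were the main probe set of Hspa1b, lower in deficient cells, and 1426645_at of Hsp90aa1 and 1447824_x_at of Hspa5, both higher. The 6 inducible genes measured (Hspa1a, Hspa1b, Hspb1, Hsph1, Dnajb1 and Hsp90aa1) had a mean litter difference of -0.37 ± 0.24 (SD over 3 litters). The 3 constitutive ones (Hspa8, Hspa5 and Hspd1) had -0.02 ± 0.32. The inducible mean is limited by the floor. Hspa1a was at the floor in all deficient samples, so its differences could not lie above 0. Hspb1 was at or near the floor and passed the filter only through its proficient samples. With only members past the filter, chosen after seeing the data, inducible minus constitutive was -0.40.

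Inducible minus constitutive came to -0.57, -0.51 and 0.04 in litters 1, 2 and 3, a mean of -0.35 ± 0.34 (SD over 3 litters), which no test was run on. In litter 1 the inducible mean was low, at -0.64. In litter 2 the constitutive mean was high, at 0.32, and in litter 3 both were near -0.3, at -0.28 and -0.32. Hspa1b supplied most of the contrast: without it the mean was -0.08, an alternative chosen after seeing the data. Among inducible genes Dnajb1 shared its direction in all 3 litters and Hsp90aa1 had the opposite sign in litters 1 and 2, so the inducible genes did not move as a block.

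**Figure D3:**
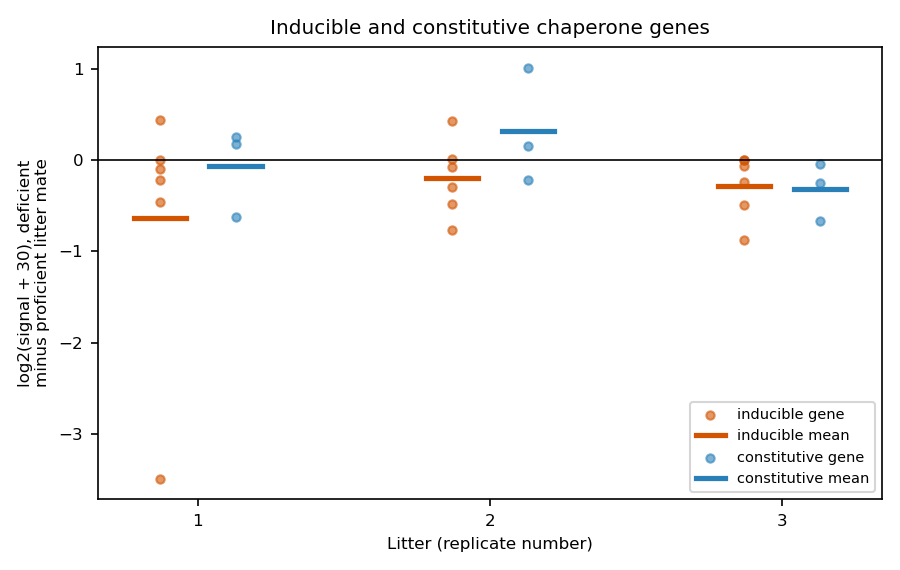
Difference in log2(signal + 30) between litter mates for each inducible (orange) and constitutive (blue) chaperone gene, main probe sets, by litter; thick bars are means over genes. The inducible mean lies below the constitutive mean in litters 1 and 2 and not in litter 3, and the point at -3.49 in litter 1 is Hspa1b.

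The partners of these chaperones were described through 10 lists holding 106 genes, of which 101 had a probe set of their own and 90 were tested. None passed in either direction, where 0.835% of all probe sets did. Of the 90, 46 were higher and 44 lower, with a median log2 difference of 0.03. Over all probe sets tested, 46% were higher and 54% lower. These counts include genes near the floor that passed the filter only through the group where they were higher. At an unadjusted p under 0.05 there were 7, or 7.78% against 11.5% of all probe sets tested. The test without a litter term called 0 of these genes and 0 of all probe sets. The fit with robust variance called 1, Ppp5c, where it called 1.47% of all probe sets.

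Of the co-chaperones of HSP90, which load its clients and set its ATP cycle, 12 of 13 were lower in deficient cells and 1 was higher. Of all probe sets tested 54% were lower. The median was -0.20, but Tomm34 (-0.0015) and Ahsa2 (-0.0043) hardly differed, and Fkbp8 was at the floor on 4 arrays. At an unadjusted p under 0.05 (limma with the litter term) there were 2 of 13, against 11.5% of all probe sets tested. The median was below 0 in each litter, at -0.16, -0.29 and -0.14. Ppp5c, a phosphatase bound to HSP90, read 45.7, 124 and 87.7 in deficient and 58.8, 429 and 224 in proficient samples of litters 1, 2 and 3 (adjusted p = 0.0943, limma with the litter term). With robust variance, chosen after seeing the data, its adjusted p was 0.0179 in limma. Unc45a, a myosin chaperone, differed by -0.57 and Cdc37, which loads protein kinases, by -0.45. Stip1, the bridge between HSP70 and HSP90, differed by -0.09.

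Of the chaperones and regulators of the endoplasmic reticulum, 15 of 21 were higher, with litter medians of 0.05, 0.41 and -0.18. That count includes differences close to 0, such as Atf6 at 0.0004, and 46% of all probe sets tested were higher. At an unadjusted p under 0.05 (limma with the litter term) there were 2 of 21, against 11.5% of all probe sets tested. Calr, the lectin chaperone calreticulin, read 6727, 4622 and 5708 in deficient and 3105, 3130.3 and 4491 in proficient samples of litters 1, 2 and 3. The groups did not overlap, as in 2.3% of the probe sets tested in that direction. Its log2 difference of 0.67 did not pass (adjusted p = 0.295, limma with the litter term). Hyou1, the HSP110 relative that serves BiP, differed by 0.58 and was higher in 3 of 3 litters. Hsp90b1, the HSP90 of this compartment, differed by 0.14, and Sdf2l1, a BiP partner, by 0.44.

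Among other HSP70 and HSP110 genes 3 of 5 were higher, Hspa2 by 0.51 with groups that did not overlap, Hspa4, an HSP110, by 0.32, and Hspa13 by 0.33. Of the J-domain genes 6 of 13 were higher. Dnajb4, a relative of Dnajb1, differed by -0.52, Dnajc2, which acts at the ribosome, by 0.46 and Dnajb2 by -0.34, while Dnaja1, a main partner of HSC70, differed by -0.21. The cytosolic chaperonin TRiC, which folds actin and tubulin, had 4 of 8 genes higher and litter medians of 0.28, 0.23 and -0.25. Mitochondrial chaperones and proteases had 7 of 10 higher, with litter medians of 0.40, -0.0012 and -0.22. Litter 3 thus had the lowest median in both of these lists.

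The remaining lists were near the floor or small. Bag3, the HSF1 target that couples HSP70 to autophagy, was above the floor only in litter 3, at 47.1 in the deficient and 30.4 in the proficient sample. Of the BAG and exchange factors 3 of 7 were higher, and of the small heat shock proteins 1 of 3. Among the heat shock factors and regulators 2 of 4 were higher. Bag3, Hspb6, Hspb8, Hsf2, Hsf4 and Hspbap1 entered the test only through the group where they were higher, so their directions carry no weight. Hsf2, a relative of HSF1, read at most 42.5, in the proficient sample of litter 1. Of the other stress genes 4 of 6 were higher, Mt1, a metallothionein, by 0.62 (adjusted p = 0.27, limma with the litter term) and in 3 of 3 litters.

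**Figure D4:**
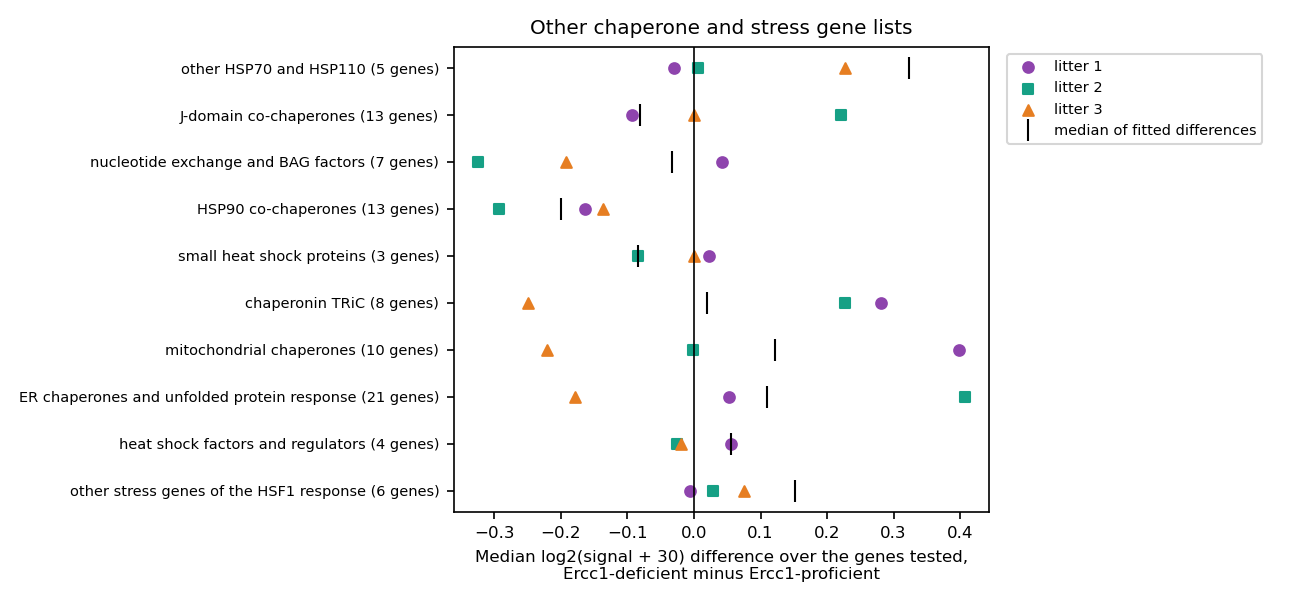
Median difference in log2(signal + 30), Ercc1-deficient minus Ercc1-proficient, over the tested genes of 10 other chaperone and stress gene lists; symbols are litters and bars the median of the fitted differences. HSP90 co-chaperones lie at -0.16, -0.29 and -0.14 in litters 1, 2 and 3, while the endoplasmic reticulum list runs from -0.18 to 0.41.

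Some other genes were also highest in the proficient sample of litter 1, where Hspa1b was high. Of 14 tested immediate early genes, which respond to stimulation and handling of cells, 7 were highest in that sample. The share over all probe sets tested was not computed, so this count has no baseline. Klf6 was highest there only narrowly, at 939 against 925 in the deficient litter mate. Egr1, named after its values were seen, read 5845 there and between 433 and 1591 in the other 5 samples, and Ier3 685 against a range of 191 to 466. Dusp1 and Jund, also named after their values were seen, were instead highest in the deficient sample of litter 1, at 5827 against 1447 and 6467 against 4781 in its litter mate. Ier3 passed by itself (log2 difference -1.01, adjusted p = 0.0410, limma with the litter term). The list as a whole had 7 genes higher and 7 lower in deficient cells, and its summed signal in litter 1 was 17812 in the deficient and 18320.4 in the proficient sample. The part of these genes in the Hspa1b result was not tested.

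RNA and hybridisation measures differed in the same litter. The 3′ to 5′ difference of Actb, a measure of how far transcripts were shortened, was 4.97 in the deficient and 4.05 in the proficient sample of litter 1 on the log2 scale. In litters 2 and 3 it was 4.27 and 3.30 against 4.43 and 3.70, the other way round. The mean log2 signal of the spike-in bioB was 10.90 in the deficient and 9.66 in the proficient sample of litter 1, and 10.05 and 9.93 against 9.99 and 9.77 in litters 2 and 3. The part of either in the Hspa1b difference was not tested.

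The sorted cells carried stem and progenitor genes, with Kit, Cd34, Flt3, Gata2, Meis1, Mecom, Hlf, Slamf1 and Procr above the floor on all arrays. Mean signals of Kit, Cd34, Flt3, Meis1, Hlf and Procr were lower in deficient cells, and those of Gata2, Mecom and Slamf1 higher. The former were each highest in the proficient sample of litter 1, where Flt3 read 310 and Hlf 988. The part of these genes in the chaperone values was not tested. Ly6a, the Sca-1 gene, had no probe set of its own. Of mature cell markers, Cd79a, Cd4 and Hba-a1 were at the floor on all 6 arrays. Other T and B cell markers were weak, with Ms4a1 up to 56.2, Cd3d up to 50.6, Cd3e up to 90.5 and Cd8a up to 98.4. Klf1 of red cell precursors (43.9 to 744), Csf1r of monocytes (141 to 429) and Pf4 of megakaryocytes (193 to 2054) were above the floor on all arrays, and their part in the chaperone values was not tested. Genes of granulocytes, a list chosen with earlier results of these data known, were higher in deficient cells, 12 of 12. With the litter term 8 of them rose, where 0.315% of all probe sets tested did. Without it 0 did, as for all probe sets. Their summed signal was 18475, 67677 and 116139 in deficient and 3997, 23021 and 36268 in proficient samples of litters 1, 2 and 3. In these bulk samples fewer cells of a type and less RNA per cell cannot be told apart, and the part of granulocytic cells in the chaperone values was not tested. Between 52.3% and 58.6% of signals lay at the floor, and the 3 samples per group limit the precision of every value.

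The genes most like Hspa1b over the 6 arrays, among 10877 others tested, were Mllt3, Hif1an, Prkg1, Mcoln3 and Dhx57, with Pearson's r from 0.984 to 0.997 and Spearman's rho from 0.771 to 1. Mllt3 read 194 in the proficient sample of litter 1 and between 55.6 and 83.7 elsewhere. Without the 2 arrays farthest from the median of Hspa1b, r ran from 0.71 to 0.96. The genes most like Hspa8 were Pts, Egfr, Tbc1d17, Cfap298 and F2r, with r from 0.971 to 0.989 and rho from 0.943 to 1, or r from 0.87 to 0.996 without the 2 farthest arrays. F2r, a thrombin receptor, was lowest in the deficient sample of litter 3 at 1872 and highest in that of litter 2 at 3522, as Hspa8 was. These are descriptions over 6 arrays that share litters, picked as the highest of many.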

How the data were processed

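Per the labels' protocols, the RNA of 6 LSK samples went through 2 rounds of linear amplification and onto Mouse Genome 430 2.0 arrays of Affymetrix. The authors deposited linear signal intensity from MAS5, per the submitters' processing notes, with no version or scaling target given in the sources used here; no value lay below 30, so differences among weak genes are hidden. Signals became log2(signal + 30). After removal of 64 control probe sets, the 22519 whose mean signal reached the median were tested with limma 3.58.1 in R 4.3.3 (lmFit, eBayes with a variance trend, Benjamini-Hochberg at 0.05), with genotype and litter as terms. Same-numbered samples are litter mates per the labels, and their deviations from the group means correlated at 0.77, 0.67 and 0.46. The fit was run on simulated arrays with normal noise and changes placed only in probe sets brighter than the main one of Hspa1b. That run therefore says nothing about the Hspa1b call.

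Names came from the platform annotation of the arrays, 34945 probe sets having 1 symbol; Entrez identifiers of 34741 matched RefSeq GRCm38.p6, and 0 symbols changed. Promoters came from RefSeq. Members and lists were chosen with earlier results of these data known. Named were all members, partners fixed by name, and the 5 genes most like Hspa1b and Hspa8. From most lists, genes that passed or otherwise up to 3 of those with the smallest p were named. The chaperonin, mitochondrial, BAG and granulocyte lists were described without naming genes in that way. Cell type markers, and some genes picked after their values were seen, were named besides. Alternatives covered the litter term, pseudocounts of 10 and 100, filters, scaling, variance model, the probe set per gene and each litter left out. Hsf1 was not analysed here.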

Additional observations from a re-analysis of the deposited data

How the results depend on the processing

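The count of chaperone genes called, 1 (Hspa1b, lower), held with pseudocounts of 10 and 100, the stricter filter and median centring. It was 0 with no replicate block, that is without a litter term, with no filter, quantile normalization, no variance trend or the mean of a gene's probe sets, and 0 without replicate 1, 2 or 3; chosen after seeing the data, robust variance and the fit without a litter term or the proficient sample of litter 1 also gave 0. Adjusted p for Hspa1b ran from 0.000369 with median centring to 0.9998 without a litter term (limma), and its log2 difference from -2.18 to -0.68. Over all probe sets 188 were called (71 higher, 117 lower), and 332 (193 higher, 139 lower) with median centring, 114 with no variance trend, 331 with robust variance, and 0 in limma without a litter term (579 at an unadjusted p under 0.05), also without that proficient sample, with no filter (1825), or without any 1 litter (1288, 1387 and 1705 without litters 1, 2 and 3). The uncalled differences that turned sign were Hspb1, from -0.15 to 0.0026 over the replicates left out (positive without replicate 2), Hspa8, from -0.26 to 0.16 (positive without replicate 3), and Hsph1, at 0.24 without a litter term and the proficient sample of litter 1. Inducible minus constitutive stayed below 0 under each alternative run, from -0.55 without Hsp90aa1 and Hsph1 to -0.08 without Hspa1b. Of the chaperone lists 0 genes were called with or without the litter term or the filter, and 1 with robust variance (Ppp5c, adjusted p = 0.0179 in limma). Values near 30 set the limit: a signal at the floor gives no order.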
